A study of Danio rerio with 186 samples.

Results

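Cycling endocrine cells of the zebrafish pancreas were compared with non-cycling cells from the same sort. Cells were chosen by their reads of 4 genes: mki67, a protein of the nucleus of dividing cells; top2a, a topoisomerase that untangles DNA; cdk1, the kinase that starts mitosis; and ccnb1, its mitotic cyclin. A cell counted as cycling with at least 5 reads in 2 or more of the 4 genes, and as non-cycling with fewer than 5 reads in each. Of 186 sequenced cells, 174 had at least 500 detected genes and 50000 gene reads. Among these, 16 were cycling and 136 non-cycling, 152 cells in all, and the other 22 had 1 gene at 5 or more reads and belonged to neither side. Since the cells were selected on these reads, the level of the 4 genes is a description, and no comparison of the sides was tested.

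The fish carried Tg(ins:BB1.0L) and TgBAC(sst1.1:memEGFP) and were 30 days post fertilization (dpf), with normal growth per the labels. The first transgene is driven by the promoter of the insulin gene ins, and the second puts membrane EGFP under sst1.1, a somatostatin gene. Pancreas was dissociated with enzymes, single cells were sorted into lysis buffer through an sst1.1+ ins+, an sst1.1+ or an ins+ gate, and Smart-Seq2 libraries were sequenced. All groups shared both transgenes, and the labels name no wild-type fish and no animals. A gate on a plate, where the number 3 or 4 in the sample titles is read as the plate, is called a pool here and is 1 sample. All sst1.1+ ins+ cells were on plate 3, all sst1.1+ cells on plate 4, and ins+ cells on both. Gate and plate therefore cannot be told apart between the sst1.1+ ins+ and the sst1.1+ pool. Whether cells of a pool came from 1 fish or several is not given in the sources used here, so cells are not replicates, and the intervals below cover counting error only.

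The cell cycle doubles the DNA in S phase and divides it in mitosis. Genes of the replication machinery are transcribed toward and during S phase, while cdk1, ccnb1 and genes of the spindle and kinetochore peak in G2 and mitosis. Beta cells make insulin and delta cells make somatostatin, and most endocrine cells of a mature islet divide rarely.

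The sst1.1+ ins+ pool held 10 cycling cells, 13 with 1 gene and 34 non-cycling cells among 57 kept cells. The sst1.1+ pool held 3, 4 and 54 of these among 61, the ins+ pool of plate 4 held 2, 2 and 20 among 24, and the ins+ pool of plate 3 held 1, 3 and 28 among 32. Cycling cells were therefore 17.5% of the sst1.1+ ins+ pool (exact Clopper-Pearson 95% interval 8.75 to 29.9%), 4.92% of the sst1.1+ pool (1.03 to 13.7%), 8.33% of the ins+ pool of plate 4 (1.03 to 27%) and 3.13% of the ins+ pool of plate 3 (0.0791 to 16.2%). The share was highest among the sst1.1+ ins+ cells, and its interval overlapped those of all other pools. Against the sst1.1+ pool, on the other plate, gate and plate cannot be told apart. With every cell thinned to 100000 gene reads, 9 of 56, 3 of 61, 1 of 24 and 1 of 32 cells met the rule, in the same order of pools; 1 of the 174 cells was too shallow. Of the 10 cycling sst1.1+ ins+ cells, 5 lay in row C of the plate, which held 12 of the 57 kept cells. No other row of that pool held more than 2 cycling cells, and why row C held more was not tested.

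**Figure D1:**
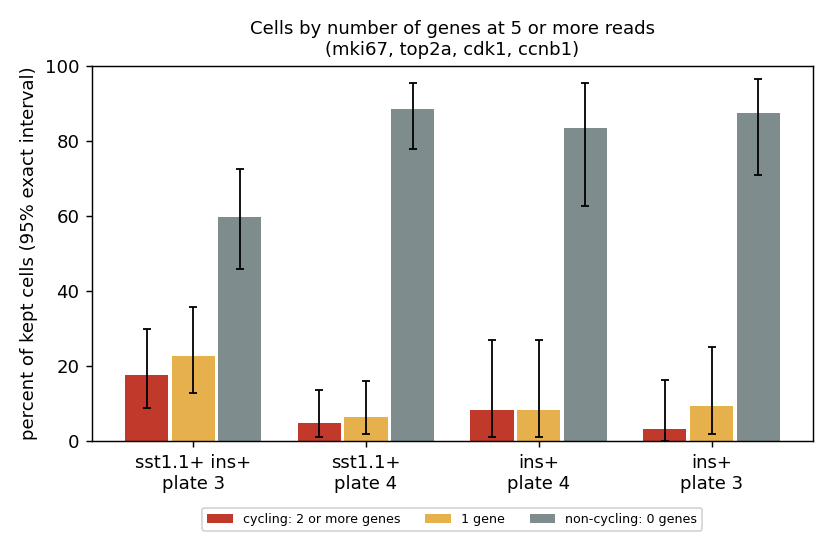
Bars give the percent of kept cells in each pool with 2 or more, 1 or 0 of the 4 genes at 5 or more reads, with exact 95% intervals. The cycling share was 17.5% in the sst1.1+ ins+ pool, and 4.92%, 8.33% and 3.13% in the other 3 pools.

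Depth and cell content moved with the sides. Cycling cells of the sst1.1+ ins+ pool had a median of 557014 gene reads and 5684 detected genes, against 477295 reads and 4819 genes in non-cycling cells. For the sst1.1+ pool the medians were 545196 reads and 5270 genes in cycling cells, and 554457 reads and 3509 genes in non-cycling cells. After thinning to 100000 reads the median was still higher in cycling cells, with 4775 against 4098 genes in the sst1.1+ ins+ pool, 4317 against 3101 in the sst1.1+ pool, 3410.5 against 2438 in the ins+ pool of plate 4 and 3794 in its 1 cell against 2303 in the ins+ pool of plate 3. Gene reads per spike-in read, a measure of RNA in the well, was 98.2 at the median cycling cell and 63.1 at the median non-cycling cell of the sst1.1+ ins+ pool. The corresponding medians were 83.2 and 40.2 for sst1.1+, 44.1 and 29.1 for ins+ on plate 4, and 70.5 and 28 for ins+ on plate 3. The part of depth and RNA content in the gene results was not tested.

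All 16 cycling cells carried islet hormones, which took 33.5 to 46.2% of gene reads in the sst1.1+ ins+ pool and 37 to 42.5% in the others. Among non-cycling cells, 1 sst1.1+ cell held 0.297% hormone reads with 712 detected genes and 16004 CPM (reads per 1000000 gene reads) of acinar markers, so that cell was not endocrine by these markers. Among cycling cells, the sst1.1+ cell of well G9 held 1958 CPM of mesenchyme markers, and the other 2 cycling cells of its pool held 0 and 2.1 CPM. Its mesenchyme genes included 1434 CPM of acta2, the smooth muscle actin, and 161 CPM of the transcription factor twist1a, both at 0 in the other two. Acinar markers summed to at most 152 CPM and immune markers to at most 57.7 CPM in any cycling cell, and endothelial markers were at 0 in all 16. Single-cell sorting filled the wells, no doublet caller was run, and whether a well held 2 cells was not tested.

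The reads of the 4 genes show what the rule picked. In the 10 cycling sst1.1+ ins+ cells, top2a had 9, 139 and 319 reads at the lowest, median and highest cell, cdk1 5, 94 and 380, mki67 1, 81 and 322, and ccnb1 0, 13 and 153. The 3 cycling sst1.1+ cells had 65, 91 and 221 reads of top2a but 0, 1 and 5 of ccnb1. In the 3 cycling ins+ cells ccnb1 had 0 reads, and the cell of well A1 on plate 4 also had 0 reads of mki67, with 27 of top2a and 57 of cdk1. Over all 16 cycling cells, top2a and cdk1 reached 5 reads in 16, mki67 in 14 and ccnb1 in 9, of which 8 were sst1.1+ ins+ cells. Just inside the threshold, the sst1.1+ ins+ cell of well C3 had 9 reads of top2a and 5 of cdk1 beside 60 of mki67. Just outside it, the sst1.1+ ins+ cell of well B5 had 12 reads of mki67 and 4 of ccnb1. All 34 non-cycling sst1.1+ ins+ cells had 0 reads in each of the 4 genes, and in the other pools the highest non-cycling values were 4 reads of mki67, 3 of top2a, 0 of cdk1 and 2 of ccnb1.

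Genes of mitosis outside the rule were higher in cycling cells. Levels are CPM of reads summed over the cells of a side in a pool, and log2 ratios of cycling to non-cycling cells add 1 CPM to both. Only the sst1.1+ ins+ and the sst1.1+ pool, with 3 or more cycling cells, enter counts and means over pools. In the sst1.1+ ins+ pool, 71 of 71 mitosis genes with at least 10 CPM on either side were at least 2-fold higher, of 78 in the list, where 16.4% of all 7062 genes were. The sst1.1+ pool had 58 of 59, where 24% of 7858 genes were. Non-cycling cells reached 10 CPM for only 4 of the measured genes in each pool, and all 4 in each were at least 2-fold higher in cycling cells. The other 67 and 55 passed the minimum through the cycling side alone, which fixed their direction, so these counts and medians are descriptions. Of the 7 list members below the minimum in the sst1.1+ ins+ pool, 4 were higher and 3 lower in cycling cells, and of the 19 in the sst1.1+ pool 11 were higher, 4 lower and 4 at 0 on both sides.

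The median log2 ratio of the list was 4.93 in the sst1.1+ ins+ pool, where that of all genes was -0.0026, and 4.17 in the sst1.1+ pool, where that of all genes was -0.14. Summed per cell, mitosis genes reached 1469, 2620 and 13338 CPM (lowest, median and highest) in cycling sst1.1+ ins+ cells, against 0, 142 and 504 CPM in non-cycling ones. The sums of the 2 sides did not overlap in any of the 4 pools.

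Among single mitosis genes, aurkb, the kinase of the chromosome passenger complex, had 26.1, 86.4 and 325 CPM at the lowest, median and highest cycling sst1.1+ ins+ cell, against 0, 0 and 34.5 CPM in non-cycling cells. It reached 5 reads in 10 of 10 cycling and 1 of 34 non-cycling cells. INCENP, its scaffold in that complex, had 11.5, 54.1 and 231 CPM, against 0, 0 and 13 CPM. In the 3 cycling sst1.1+ cells aurkb had 66, 164 and 168 CPM, with 0, 0 and 126 CPM in non-cycling cells, so 1 non-cycling cell lay among the cycling ones. A ranking by mean log2 ratio over both pools took genes with at least 50 CPM on average in cycling cells and the higher level there. That rule fixed their direction, so their values are a description. The highest were cks2, which binds cyclin-dependent kinases, with 6.28, primpol, a primase-polymerase, with 6.25, and nsl1, a kinetochore protein, with 5.95. INCENP followed with 5.93, the S and G2 cyclin ccna2 with 5.90, the spindle protein CKAP2 with 5.78, the thymidine kinase tk1 with 5.77, the condensin subunits ncapg2 with 5.74 and smc2 with 5.73, and the importin kpna2 with 5.66. Of these, ccna2 had 0 reads in all 34 non-cycling sst1.1+ ins+ cells, and CKAP2 and nsl1 had 0 in all 88 non-cycling cells of both pools. In the sst1.1+ pool the cell of well G9 held 69.9% of the cycling reads of nsl1, and D3 held 73.8% of those of ccna2. Both genes had 0 reads in the 2 cycling ins+ cells of plate 4.

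Outside the lists of dividing cells, the same ranking named slc29a2, a nucleoside transporter, with 71.5 CPM in cycling sst1.1+ ins+ cells against 0, and 125 against 4.27 CPM in sst1.1+ cells. It also named mis18a, which loads centromeric histone, with 26.7 against 0 and 82.0 against 2.22 CPM. In the sst1.1+ pool the cell of well G9 held 87.2% of the cycling reads of mis18a, and the other 2 cycling cells had 16.6 CPM. For slc29a2, G9 held 59.1% there, and the cell of well C5 held 52.9% in the sst1.1+ ins+ pool. The ranking also held a histone H4 gene given as HIST1H4D (1 of 3), with 131 against 3.79 and 176 against 2.05 CPM. Histone genes have near-identical copies, so this value is uncertain. The genes mibp, krcp, si:dkey-30c15.10 and zgc:110540 completed the list, with mean log2 ratios of 5.29, 4.53, 5.08 and 4.79. The same rule fixed the direction of all genes in this list. Over all genes, 408 of 6116 (6.67%) were at least 2-fold higher in both pools, and 385 (6.29%) were at least 2-fold lower.

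DNA replication genes were also higher, apart from some MCM genes in the pools with 3 or more cycling cells. Of 56 measured members, 53 were at least 2-fold higher in the sst1.1+ ins+ pool, of 71 in the list, where 16.4% of all genes were, and 49 of 53 in the sst1.1+ pool, where 24% were. The median log2 ratios were 2.69 and 3.08. Here too 48 and 43 members passed the minimum through the cycling side alone. Of the 8 and 10 that reached it in non-cycling cells, 5 and 6 were at least 2-fold higher. The sliding clamp pcna had 46.7, 678 and 2031 CPM (lowest, median and highest) in cycling sst1.1+ ins+ cells, against 0, 0 and 358 CPM in non-cycling cells. Among sst1.1+ cells it had 613, 865 and 2030 CPM in the 3 cycling ones, against 0, 0 and 1677 CPM in the non-cycling ones. The ratio of the sums was 26.1 (95% interval 23.7 to 28.8) and 16.8 (15.8 to 17.9), and without the cell of well G9 the second was 10.2. Most cycling cells were far above the median non-cycling cell, but single non-cycling cells reached the same level. Of the MCM genes, which encode the helicase ring loaded before S phase, mcm7 had 37.1 CPM in cycling against 7.46 CPM in non-cycling sst1.1+ ins+ cells. For mcm2 the values were 19 against 26.1 CPM, for mcm3 7.68 against 6.04, for mcm5 18.1 against 10.9, and for mcm6 20.8 against 8.23. Among sst1.1+ cells mcm3 had 0 CPM in the 3 cycling cells and 10.3 CPM in non-cycling cells. There mcm7 had 64.1 against 9.79 CPM, mcm2 30.2 against 7.94, mcm5 45 against 20.7 and mcm6 27.7 against 16.6. The cell of well G9 held all cycling reads of mcm2 and mcm5 and 84.4% of those of mcm6. In the 2 cycling ins+ cells of plate 4, mcm7 had 132 against 7.63 CPM, mcm6 93.6 against 19.7 and mcm5 60 against 7.15. The cell of well A1 held all cycling reads there of mcm5, mcm2 (59.1 against 10.6 CPM) and mcm3 (12.4 against 0 CPM). Neither mcm2, mcm3 nor mcm5 was 2-fold apart in the sst1.1+ ins+ pool, and reads of these genes came from few cells: mcm2 reached 5 reads in 3 of 10 cycling and 5 of 34 non-cycling cells. Without the cycling sst1.1+ ins+ cell that held most of its reads, each was lower in that pool. Without E11, mcm7 had 17 CPM, mcm2 6.54 CPM and mcm5 8.99 CPM. Without C8, mcm6 had 9.78 CPM, no longer 2-fold apart, and mcm3 had 4.07 CPM.

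**Figure D2:**
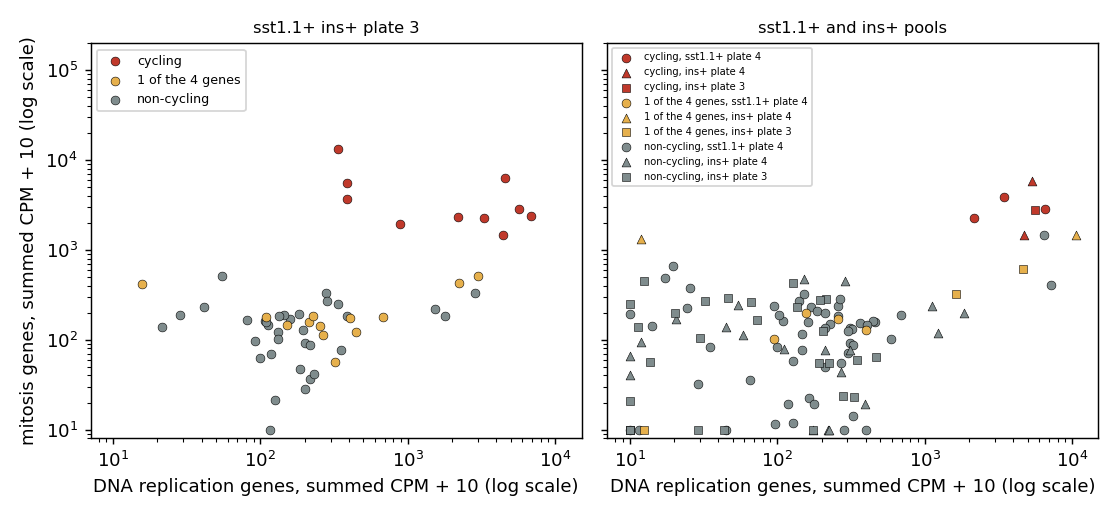
Each point is a cell, with the summed CPM of DNA replication genes on the x axis and of mitosis genes on the y axis, both plus 10 on log scales. Cycling cells lay above the non-cycling cells of their pool on the y axis. On the x axis 3 cycling sst1.1+ ins+ cells lay at 325 to 380 CPM, and 5 non-cycling cells with 20 or more replication genes at 5 reads lay at 1511 to 7231 CPM.

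Cycling cells differed among themselves. In the sst1.1+ ins+ cells of wells C7, C9 and E9, which had 153, 61 and 45 reads of ccnb1, replication genes summed to 325, 377 and 380 CPM. The mitosis activator cdc20 had 210, 110 and 40 CPM in these 3 cells, kpna2 had 1289, 525 and 686 CPM, and tk1 had 0, 0 and 3.3 CPM. The cell of well D6, with 15 reads of ccnb1, had 878 CPM of replication genes. The other 12 cycling cells, with 0 to 26 reads of ccnb1, had 2164 to 6848 CPM of replication genes, and cdc20 was at 0 in 11 of them. Thus 3 cells held genes of G2 and mitosis with few replication reads, and 12 held replication reads with little or no cdc20. The mitosis gene cenpf was also higher in the 3 cells, with 397, 300 and 162 CPM, against 0 to 145 CPM in the 12. Not every mitosis gene separated these groups. The mitotic kinase gene plk1 had 0 to 228 CPM in the 12 cells, against 123 to 552 CPM in the 3. For aurkb the values were 0 to 221 CPM, against 50 to 325 CPM. The ins+ cell of well A1 on plate 4 lay at the replication end, with 4695 CPM of replication genes and 0 reads of aurkb, plk1, ccna2, kpna2 and cenpf. These values describe 16 cells ordered after their values were seen.

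**Figure D3:**
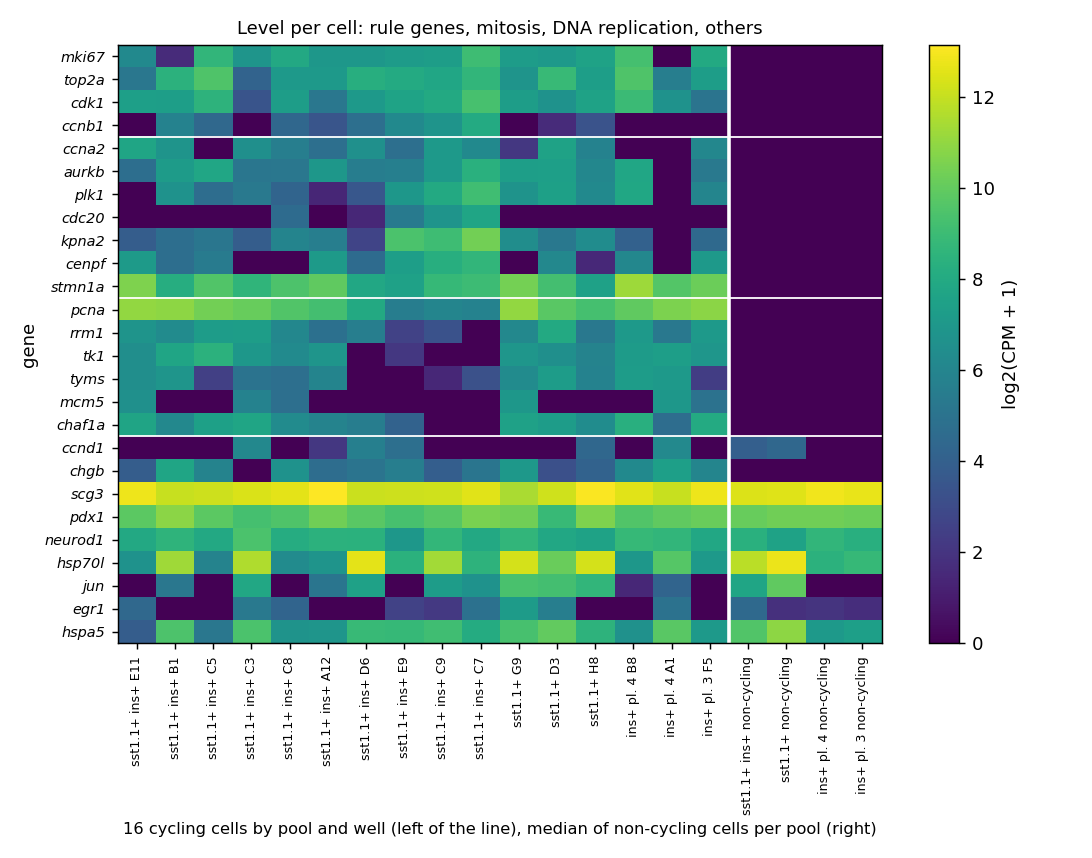
Colour gives log2(CPM + 1) of single genes in the 16 cycling cells, ordered within each pool by the summed CPM of replication genes, and the median over non-cycling cells of each pool right of the white line. The cells of wells E9, C9 and C7 had the highest kpna2 and cdc20 and the lowest pcna, at 46.7 to 63.2 CPM.

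Chromatin and nuclear factors of dividing cells were higher in part. Of 37 measured members, 20 were at least 2-fold higher and 1 lower in the sst1.1+ ins+ pool, against 16.4 and 15.2% of all genes. In the sst1.1+ pool, 27 of 38 were higher and 0 lower, against 24 and 30.9%. In each pool 6 members passed the minimum through the cycling side alone, which fixed their direction. Of the 31 and 32 that reached it in non-cycling cells, 14 and 21 were at least 2-fold higher. The microtubule regulator stmn1a had 185, 483 and 1575 CPM at the lowest, median and highest cycling sst1.1+ ins+ cell, against 0, 0 and 76.6 CPM in non-cycling ones, and the sides did not overlap. The ratio of the sums was 67.6 (57.1 to 80.6), and in the sst1.1+ pool it was 37 (33.6 to 40.9), with 180, 590 and 1364 CPM in cycling cells and 0, 0 and 450 CPM in non-cycling cells. The highest of these 3 was the cell of well G9, with the mesenchyme markers, and the ratio was 18.7 without it. In the 2 cycling ins+ cells of plate 4 stmn1a summed to 1599 CPM, against 0 CPM in 20 non-cycling cells. The high-mobility-group genes hmgb2a (997 against 139 CPM) and hmgn2 (1404 against 213 CPM) were higher in the sst1.1+ ins+ pool, and likewise in the sst1.1+ pool, at 848 against 136 and 1147 against 194 CPM. Of 12 measured tubulins, the subunits of microtubules, 10 were at least 2-fold higher and 1 lower in the sst1.1+ ins+ pool, against 16.4 and 15.2% of all genes. In the sst1.1+ pool 7 of 11 were higher and 2 lower, against 24 and 30.9%. Among the higher ones was tuba8l, with 871 against 53.2 and 510 against 61.8 CPM. Here 6 and 2 tubulins passed the minimum through the cycling side alone. Where non-cycling cells reached it, 4 of 6 and 5 of 9 were at least 2-fold higher.

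Regulators of G1 did not follow the replication genes. Their list had a median log2 ratio of 0.031 in the sst1.1+ ins+ pool, with 5 of 21 at least 2-fold higher and 3 lower (16.4 and 15.2% of all genes), and of -0.48 in the sst1.1+ pool, with 5 of 20 higher and 5 lower (24 and 30.9% of all genes). These counts were close to the shares of all genes. In the 2 pools, 4 and 2 members passed the minimum through the cycling side alone. Of the 17 and 18 that reached it in non-cycling cells, 1 and 3 were at least 2-fold higher. The G1 cyclin ccnd1 had 0, 0 and 69.2 CPM (lowest, median and highest) in cycling sst1.1+ ins+ cells, against 0, 14.6 and 250 CPM in non-cycling cells. Its summed level was 15 against 46.7 CPM there, a ratio of 0.321 (0.252 to 0.404), and 6.78 against 70.9 CPM in the sst1.1+ pool, a ratio of 0.0956 (0.0476 to 0.171), with reads in 1 of the 3 cycling cells. Of the cycling ins+ cells, A1 of plate 4 had 71.6 CPM of ccnd1 and the others 0, against 32.4 CPM summed in non-cycling cells of plate 4 and 26.6 CPM in those of plate 3. The inhibitor cdkn1bb, of the p27 family, had 22.3 against 32.7 CPM and 19.7 against 51.8 CPM in the sst1.1+ ins+ and sst1.1+ pools, and 1 of the 3 cycling sst1.1+ cells held 84.4% of its reads there. Genes of growth and ribosome building had 0 of 34 members at least 2-fold higher and 6 lower in the sst1.1+ ins+ pool (16.4 and 15.2% of all genes), and 8 of 39 higher and 10 lower in the sst1.1+ pool (24 and 30.9%). All 75 measured ribosomal protein genes lay within 2-fold in both pools, with medians of 0.0050 and 0.065.

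The hormones of the sorted gates were abundant on both sides. Among sst1.1+ ins+ cells, ins had 95635, 166077 and 415809 CPM at the lowest, median and highest cycling cell, against 65153, 220555 and 407755 CPM in non-cycling cells. For sst1.1 the values were 18392, 150262 and 316432 CPM, against 3157, 121029 and 349505 CPM. The ranges of both hormones overlapped between the sides. Summed levels were 222086 against 225513 CPM for ins and 162733 against 124055 CPM for sst1.1. Among sst1.1+ cells, sst1.1 had 177374, 368075 and 381848 CPM in the 3 cycling cells, against 1057, 254118 and 508936 CPM in non-cycling cells. In the ins+ pools, ins had 182040 and 368690 CPM in the cycling cells of plate 4 and 424081 CPM in that of plate 3, against medians of 385012 and 393025 CPM in non-cycling cells.

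Single cycling cells carried hormones beyond their gate. The ins+ cell of well A1 on plate 4 had 194330 CPM of sst1.1, while the highest of the 20 non-cycling ins+ cells of that plate had 15273 CPM. The sst1.1+ ins+ cell of well C3 had 68306 and 88728 CPM of the glucagon genes gcga and gcgb, and the other 9 cycling cells of that pool had at most 648 and 512 CPM. Among 34 non-cycling cells of that pool the highest values were 54572 and 58048 CPM. The sst1.1+ cell of well D3 had 105795 CPM of sst1.2 and 91751 CPM of sst2, other somatostatin genes, and the highest non-cycling cell of its pool had 231800 and 137559 CPM. Cells with further hormones thus occurred on both sides. The sst1.1 level of the ins+ cell and the gcga and gcgb levels of C3 lay above every non-cycling cell of their pools. For sst1.2, 1 cycling ins+ cell of plate 4 had 11366 CPM, against at most 564 CPM in non-cycling cells there.

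**Figure D4:**
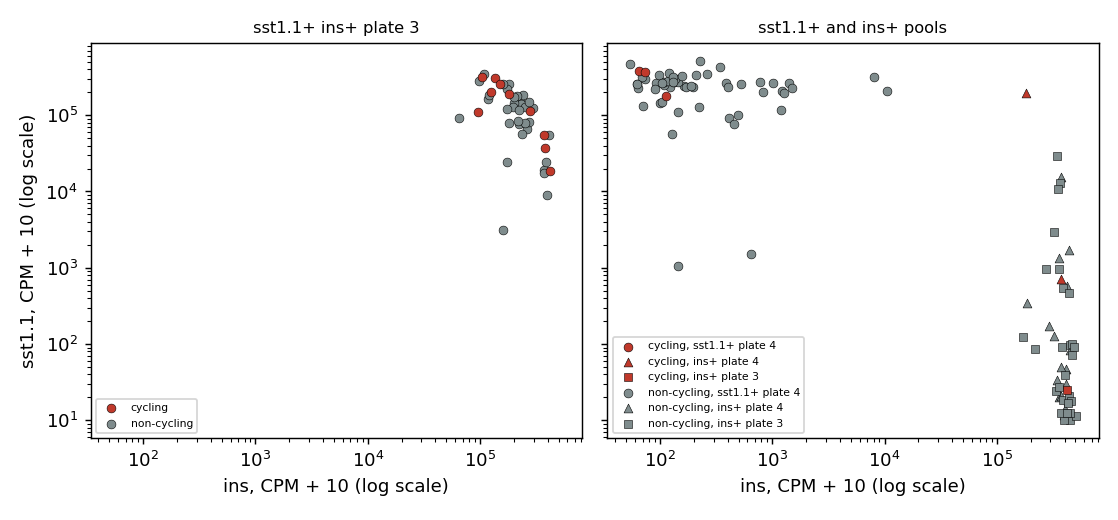
Each point is a cell, with ins on the x axis and sst1.1 on the y axis, both as CPM plus 10 (log scales). Cycling cells lay among the non-cycling cells of their pool, except 1 ins+ cell of plate 4, where ins was at 182040 and sst1.1 at 194330 CPM.

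Islet transcription factors and beta-cell function genes differed little in the sst1.1+ ins+ pool. Of 28 measured islet transcription factors 24 lay within 2-fold, with 1 higher and 3 lower, where 15.2% of all genes were at least 2-fold lower, and the median log2 ratio was -0.11. The factor pdx1, needed for beta and delta cells, had 604, 894 and 1854 CPM in cycling and 420, 1096 and 2169 CPM in non-cycling cells (lowest, median and highest). The endocrine factor neurod1 had 324 against 335 CPM summed, isl1 143 against 149, nkx2.2a 73.7 against 73.9 and mnx1, a beta-cell factor, 51.2 against 51.8. Those past 2-fold were elf3 (11.2 against 88.2 CPM), prox1a, rfx6 (15.9 against 33.5) and arxa, an alpha-cell factor at 13.5 against 1.16 CPM that reached 5 reads in 1 of 10 cycling cells. Of 23 beta-cell function genes 22 lay within 2-fold, 1 was higher and 0 lower, where 16.4 and 15.2% of all genes were. The exception, the diacylglycerol kinase gene dgkaa, had 26.9, 115 and 302 CPM in cycling cells and 0, 25.7 and 272 CPM in non-cycling cells. The glucose transporter slc2a2 had 297 against 253 CPM and the prohormone convertase pcsk1 404 against 365 CPM. Outside this pool dgkaa was lower in cycling cells, at 56.5 against 146 CPM in the ins+ pool of plate 4. In the sst1.1+ pool it had 0 against 4.76 CPM. Of 9 measured delta-cell markers in the sst1.1+ ins+ pool, 6 lay within 2-fold, 0 were higher and 3 lower, with a median log2 ratio of -0.15. Of 10 in the sst1.1+ pool, 4 lay within 2-fold, 2 were higher and 4 lower, where 24 and 30.9% of all genes were. The median of these markers there was -0.68, against -0.14 for all genes.

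The lists spread more in the sst1.1+ pool, which had only 3 cycling cells, and why was not tested. Of 26 islet factors 14 lay within 2-fold, 4 were higher and 8 lower, where 24 and 30.9% of all genes were. There pdx1 had 455, 1243 and 1576 CPM in the 3 cycling cells, inside the range of 0, 1242 and 3952 CPM of non-cycling cells. Of 20 beta-cell function genes 9 lay within 2-fold, 3 were higher and 8 lower, where 24 and 30.9% of all genes were. The genes at 0 among these may not have been detectable in 3 cells. In the ins+ pool of plate 4 (2 cycling cells), islet factors had a median log2 ratio of -1.07 and beta-cell function genes -0.99. That of all genes was -0.49. In the ins+ pool of plate 3 (1 cycling cell) the lists had -1.85 and -0.64, against -0.95 for all genes. All cycling ins+ cells lay below the non-cycling median of their pool in the summed level of both lists.

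Granule genes were level in the sst1.1+ ins+ pool, with chgb as the exception. Of 25 granule and hormone processing genes, 24 lay within 2-fold in the sst1.1+ ins+ pool. There 1 was higher and 0 lower, where 16.4 and 15.2% of all genes were. Within 2-fold lay the granin scg3 with 5682 against 5644 CPM and chga with 293 against 282 CPM. The granin chgb had 0, 33.1 and 208 CPM at the lowest, median and highest cycling sst1.1+ ins+ cell, against 0, 0 and 35.6 CPM in non-cycling cells. It reached 5 reads in 9 of 10 cycling and 4 of 34 non-cycling cells. The ratio of the sums was 18.8 (13.6 to 26.7). With 2.70 CPM in non-cycling cells, chgb passed the minimum of 10 CPM through the cycling side alone, which fixed its direction. Among sst1.1+ cells chgb had 8.32, 16.5 and 126 CPM in the cycling cells and 0, 0 and 134 CPM in the non-cycling ones, a ratio of 5.88 (4.57 to 7.49). The 126 CPM were those of the cell of well G9, with 85.2% of the reads, and without it the level was 12.7 against 9.23 CPM, a ratio of 1.37. The ins+ cells gave 73.1 and 170 CPM in the 2 cycling cells of plate 4, against 0 in all 20 non-cycling cells, and 61.8 CPM in the cycling cell of plate 3, against 4.45 CPM summed in non-cycling cells. All 4 pools had the higher summed chgb on the cycling side, in the sst1.1+ pool by less than 2-fold without G9, and single non-cycling sst1.1+ cells reached the level of the highest cycling cell. The summed level of non-cycling cells lay below 10 CPM in all 4 pools, so these values are a description.

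The median log2 ratio of the granule list in the sst1.1+ ins+ pool was -0.18, with 18 of 25 below 0, against -0.0026 for all genes. In the other pools the median of the granule list was also below 0, as was that of all genes. Of 26 members in the sst1.1+ pool 20 lay within 2-fold, 2 were higher and 4 lower (24 and 30.9% of all genes), with a median log2 ratio of -0.29 and 22 below 0. The median of all genes there was -0.14. In the ins+ pool of plate 3, with 1 cycling cell, the list had -0.26, against -0.95 for all genes. In the ins+ pool of plate 4 the median was -0.68 over 24 members, against -0.49 for all genes. Summed per cell the list had 10241 and 12431 CPM in its 2 cycling cells, against a non-cycling median of 17199 CPM, and 18 of 20 non-cycling cells lay above both.

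Immediate-early and heat-shock genes, which respond to dissociation and heat among other stimuli, were lower in the cycling cells of the sst1.1+ ins+ and sst1.1+ pools. Of 37 measured members, 25 were at least 2-fold lower and 0 higher in the sst1.1+ ins+ pool, with 15.2% of all genes lower. The sst1.1+ pool had 17 of 37 lower and 0 higher, with 30.9% of all genes lower. The median log2 ratio was -1.36 and -0.96. Summed per cell, the list took 0.411, 0.588 and 2.02% of gene reads (lowest, median and highest) in cycling sst1.1+ ins+ cells, against 0.356, 2.09 and 6.92% in non-cycling cells. All 10 cycling cells lay below the non-cycling median, and 15 of 34 non-cycling cells lay at or below the highest cycling cell. The 3 cycling sst1.1+ cells had 1.41, 1.53 and 1.85%, against 0.219, 3.42 and 7.66% in non-cycling cells, again all below the non-cycling median.

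In the ins+ pools, the 2 cycling cells of plate 4 had 0.531 and 0.850%, on either side of the non-cycling median of 0.624%. The 1 cycling cell of plate 3 had 0.407%, against a non-cycling median of 0.625%, and 23 of 28 non-cycling cells lay above it. Among single genes of the sst1.1+ ins+ pool, the inducible chaperone hsp70l had 57.2, 347 and 6299 CPM in cycling and 50.3, 3526 and 31292 CPM in non-cycling cells. The transcription factor jun had 0, 34.6 and 238 CPM, against 0, 211 and 1657 CPM, and egr1 had 11.7 against 66.2 CPM summed. Among sst1.1+ cells jun had 407, 584 and 663 CPM in the cycling cells, against 0, 960 and 3560 CPM. The gene hspa8, made without stress, lay within 2-fold in both pools, at 1515 against 1957 and 1582 against 2895 CPM, but not in the sst1.1+ pool without its highest cycling cell, at 1296 CPM. Within row C of the sst1.1+ ins+ pool, with 5 cycling and 5 non-cycling cells, the list's median log2 ratio was -0.88, and in the other rows, with 5 and 29 cells, it was -1.36. The part of the row in the difference of -1.36 over all rows was not tested beyond these values.

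**Figure D5:**
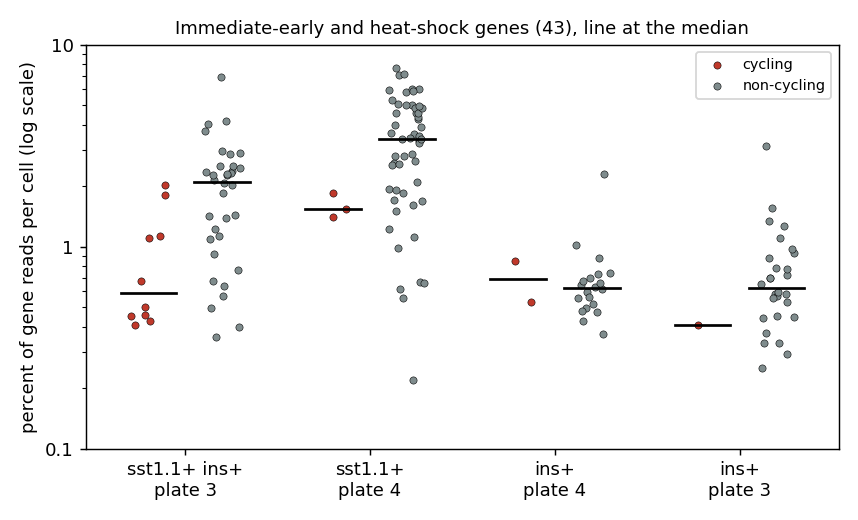
Each point is a cell, with the percent of gene reads in 43 immediate-early and heat-shock genes on a log y axis, and lines mark medians. Cycling cells had medians of 0.588 and 1.53% in the sst1.1+ ins+ and sst1.1+ pools, against 2.09 and 3.42% in non-cycling cells. In every pool the cycling cells lay within the non-cycling range.

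Genes of the endoplasmic reticulum were lower at the median, with counts of lower genes near the shares of all genes and few genes higher. Of 28 measured members of the list on ER stress and protein folding, 6 were at least 2-fold lower and 1 higher in the sst1.1+ ins+ pool, where 15.2 and 16.4% of all genes were. In the sst1.1+ pool 10 of 28 were lower and 0 higher, where 30.9 and 24% were, with median log2 ratios of -0.46 and -0.65. The ER chaperone hspa5 had 13.9, 360 and 704 CPM in cycling and 34, 770 and 4766 CPM in non-cycling sst1.1+ ins+ cells, and its summed ratio was 0.333 (0.317 to 0.350) there and 0.256 (0.241 to 0.272) in the sst1.1+ pool. Of the 2 cycling ins+ cells of plate 4, A1 had 873 and B8 101 CPM, against 211 CPM summed in non-cycling cells. The cycling cell of plate 3 had 129.9 CPM, against 320.2 CPM summed. Oxidative phosphorylation genes lay within 2-fold for 73 of 77 members in the sst1.1+ ins+ pool and 68 of 77 in the sst1.1+ pool. The rest were 4 higher and 0 lower (16.4 and 15.2% of all genes), and 3 higher and 6 lower (24 and 30.9% of all genes). Of 21 glycolysis genes 18 lay within 2-fold and 3 were lower in the sst1.1+ ins+ pool (15.2% of all genes), with a median log2 ratio of -0.29. In the sst1.1+ pool 9 of 22 were at least 2-fold lower and 2 higher (30.9 and 24% of all genes). The median was -0.81, where that of all genes was -0.14. All 3 cycling cells lay below the non-cycling median of the summed level, at 2975, 3707 and 3887 against 4790 CPM.

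The lowest-ranked genes rested mostly on the 3 cycling sst1.1+ cells. That ranking took genes with at least 50 CPM on average in non-cycling cells and the higher level there, which fixed their direction. They were znf706, szrd1, sdf2l1, kdm5ba, AKAP13 (2 of 2), aph1b, maff, bag3, vps4b and fuca2, with mean log2 ratios of -3.49 to -2.97. In the 3 cycling sst1.1+ cells, znf706, szrd1, sdf2l1, kdm5ba, aph1b and vps4b had 0 reads. Among sst1.1+ ins+ cells znf706 had 29.8 CPM in cycling and 56.9 CPM in non-cycling cells, and aph1b had 47.4 and 48.5 CPM. The co-chaperone bag3 had 102 against 207 CPM among sst1.1+ ins+ cells, with 71.9% of the cycling reads in the cell of well D6, and 27.1 against 919 CPM among sst1.1+ cells. Of the 10 genes only szrd1 and bag3 were at least 2-fold lower in the sst1.1+ ins+ pool.

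The non-cycling side was not free of replication reads. In it, 5 of 136 cells, or 3.68% (1.2 to 8.37%), had 20 or more replication genes at 5 reads, against 13 of 16 cycling cells, a minimum set after the values were seen. The sst1.1+ cell of well E12 had 52 replication and 26 mitosis genes at 5 reads, with 2 reads of mki67 and 3 of top2a. The sst1.1+ cell of well F2 had 34 replication genes with 7231 CPM in all, above every cycling cell, and 0 reads of the 4 genes. The other 3 were sst1.1+ ins+ cells, of wells D2, C2 and B6 with 36, 29 and 21 such genes. Non-cycling therefore names cells below 5 reads in each of the 4 genes, some of which held replication genes. Leaving these 5 cells out, the mean over both pools of the replication list's median log2 ratio was 4.0, against 2.89 with them.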

How the data were processed

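The authors deposited 1 table of raw read counts per gene, with no normalization, for 186 cells. Per the submitters' processing notes, Trim Galore, HISAT2, featureCounts and the GRCz11 build were used; the sources used here give no versions, no annotation and no strand setting. Every column matched a cell by its library name, and no 2 cells held identical counts. The table has 31953 genes and an EGFP row; spike-in RNAs were kept out of totals. A row named AC024175.4, whose nature the table does not give, took 8.92 to 11.9% of the summed reads of a side and stayed in the totals.

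Reads were summed over the cells of a side within each gate and plate, in Python 3.11.15. A list median takes members with at least 10 CPM on either side, with a pseudocount of 1 CPM, which understates ratios of low genes. Shares carry exact Clopper-Pearson intervals and ratios exact conditional binomial intervals, both at 95%, for counting error only, since the reads have no molecular identifiers. The side rule uses the same cells as every comparison, so no p-value was computed. The sides were compared within each pool; replicate numbers only name cells, and no paired analysis was possible because no test was run. The intervals of ratios and the 2-fold calls of single genes were tested on simulated Poisson counts, which hold no spread between cells.

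The cells and the 24 gene lists were chosen with earlier results of these data known, and 841 of 883 listed symbols were found. Named genes are the 10 highest, the 10 highest outside the lists of dividing cells and the 10 lowest by mean log2 ratio over both pools with at least 3 cycling cells. They have at least 50 CPM on the higher side, 5 reads in 50% or more of its cells, the same direction in both pools and at most 50% of reads from 1 cell over both pools together. Other genes are list members given as examples. Alternatives were other totals, TMM scaling (edgeR 4.0.16, run in R 4.3.3), other rules for the sides, other cell filters and thinning.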

Additional observations from a re-analysis of the deposited data

Results flagged for a closer look

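Among the 10 cycling sst1.1+ ins+ cells, 24 measures were examined for a cell far from the others. Far meant a gap to the nearest cell above 0.466 of the whole range. How often chance gives such a gap in these measures was not tested, so the cells named here are a description. The cells had also been selected on reads of ccnb1, which is among the measures. The cell of well C7 stood apart with 258 CPM of ccnb1, 13338 CPM of mitosis genes and 8940 CPM of EGFP. The cell of well C3 stood apart with gcga at 68306 CPM and gcgb at 88728 CPM, and the cell of well E9 with 931 CPM of sst2.

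Median log2 ratios of 2 lists had opposite signs in the sst1.1+ ins+ and sst1.1+ pools, and the difference was not tested. Progenitor and ductal genes had -0.68 over 7 measured genes and 1.07 over 11. The list of liver and gut markers had -0.60 and 2.44, over 1 and 2 measured genes. In the sst1.1+ pool the cell of well G9 alone held all reads of her6 and notch3 among the 3 cycling cells, at 1045 and 133 CPM, and its mesenchyme markers stand beside this value. Without that cell the list had -0.39 in the sst1.1+ pool.

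Among the 22 cells with 1 of the 4 genes, which no comparison uses, 4 had 20 or more replication genes at 5 reads, or 18.2% (exact 95% interval 5.19 to 40.3%), against 3.68% of non-cycling cells. The ins+ cell of well A2 on plate 4 had 187 reads of mki67, 53 replication genes and 10672 CPM of them.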

How the results depend on the processing

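Over all alternatives, 119 of 151 recomputed main values stayed within the spread set for them. For a list mean, that spread was the standard deviation between both pools. Leaving out 1 pool could not move a list mean past it, so those values are in the 119 by construction. A value within its spread could still change sign, as beta-cell function did without the sst1.1+ pool, at 0.016 against -0.29. The main means over both pools were 4.55 for mitosis, 2.89 for DNA replication, -0.24 for islet transcription factors, -0.29 for beta-cell function, -0.23 for granule genes, -0.55 for ER genes and -1.16 for immediate-early and heat-shock genes. With means of log2 levels over cells, the median of all genes was 0.59 against -0.07, and islet factors (0.38), granule genes (0.16), ER genes (0.058), beta-cell genes (0.49), growth genes (0.66) and G1 regulators (0.62) turned positive, the last 2 above that median; mitosis genes had 3.89, and immediate-early and heat-shock genes -0.65. A pseudocount of 5 CPM gave 2.80 for mitosis and 1.96 for replication genes. Without a minimum level replication genes had 2.46. Totals without hormones gave -0.10 for granule genes and moved the median of all genes to 0.013. Against non-cycling cells with as many detected genes as cycling ones, replication genes had 3.74, beta-cell genes 0.19 and granule genes -0.12. Alternatives chosen after seeing the data gave these values. Without the cell highest in mitosis genes in each pool, islet factors had -0.49 and ER genes -0.75. Without the mesenchyme cell and those with glucagon or sst2, which left 1 cycling sst1.1+ cell and moved the median of all genes to -0.49, replication genes had 2.56, beta-cell genes -0.89, and immediate-early and heat-shock genes -1.49. Without the mesenchyme cell alone, the sst1.1+ pool gave 4.28 for mitosis, 2.86 for replication, -0.99 for beta-cell, -1.17 for growth and -1.49 for immediate-early and heat-shock genes, and progenitor and ductal genes had -0.39 against 1.07. Without the cycling cell with most reads of the gene, hspa5 had -1.06 against 1.19 in the ins+ pool of plate 4, and chgb 0.42 against 2.43 in the sst1.1+ pool. Without non-cycling cells rich in replication genes, replication genes had 4.0. Within row C, granule genes had 0.035 in the sst1.1+ ins+ pool, against -0.18 over all rows. Leaving out 1 pool gave 4.17 to 4.93 for mitosis, 2.69 to 3.08 for replication, -0.36 to -0.11 for islet factors, -0.59 to 0.016 for beta-cell genes, -0.29 to -0.18 for granule genes, -0.65 to -0.46 for ER genes, and -1.36 to -0.96 for immediate-early and heat-shock genes. The count of genes at least 2-fold higher was 408 in both pools and 76 with a minimum of 50 CPM, and single pools gave 1155 to 1886. The count of lower genes was 385, 253 with a pseudocount of 5 CPM, 52 with the higher minimum, and 1071 to 2426 in single pools. In the sst1.1+ ins+ pool the log2 ratio of ins was -0.02, -0.41 from medians over cells and 0.049 without hormones in the total; that of sst1.1 was 0.39, 0.31 and 0.46, and 0.33, 0.53 and 0.51 in the sst1.1+ pool. No alternative moved a share of cycling cells out of its interval. The causes were not tested. With 3 cycling sst1.1+ cells, a gene at 0 may be one too low to detect.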
